A study of Mus musculus with 20 samples.

Results

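The ribosomal protein genes and a small set of translation factors were examined in follicular T cells of the mouse spleen. Members were the genes of the expression matrix whose symbol begins with Rps or Rpl and a digit, or with Rplp, without the Rps6k kinases, which gave 93 genes. Tpt1, Eef1a1, Eef1b2, Eef2 and Rack1 were added, so that 98 of the 13798 genes were members. By symbol they comprised 30 genes of the small subunit, 43 of the large subunit, 3 of the ribosomal stalk, 5 paralogs, 11 retrocopies, the 5 added genes and Rps19bp1, which encodes a nucleolar binding partner of Rps19 and is not itself a ribosomal protein. All mice were irradiated C57BL/6 recipients of bone marrow and were analysed 10 weeks after irradiation. The 5 WT chimeras had received congenic WT marrow alone and were immunized at week 6 with NP-OVA in alum, a hapten-protein conjugate in adjuvant. The study's methods also describe a later booster with NP-OVA, which the labels do not give for these mice. The 5 mixed 564Igi chimeras had received WT marrow together with marrow of 564Igi mice, whose B cells carry the knocked-in heavy and light chains of an autoreactive receptor, and had not been immunized. The effects of the B cells and of the immunization cannot be told apart in this design. By their labels, 2 WT mice were female (11 and 12) and 3 male (14, 23 and 36), and 3 of the 564Igi mice were female (13, 21 and 34) and 2 male (17 and 24). Splenic CD4+CXCR5+PD1+ cells, a gate that holds follicular helper (Tfh) and follicular regulatory (Tfr) T cells, had been sorted and captured for 10X Genomics 5′ single-cell RNA sequencing, 1 library for each mouse.

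The 28192 deposited cells carried 3424280 to 15241983 raw UMIs (unique molecular identifiers, each marking 1 captured transcript) in a mouse, from 1121 to 4030 cells, with a median of 2728 to 4375.5 UMIs for each cell. Of 27695 different cell barcodes, 491 occurred in more than 1 library. The cells had been assigned by the authors to activated Tfh (11953 cells), Tfr (11650), Sostdc1 Tfh (2803), central memory Tfh (725), effector Tfh (682) and interferon stimulated Tfh (379) clusters. In the central memory cluster the markers Sox4 and Slamf7, used to check its name, were higher than in the other cells of the same mouse by 1.15 ± 0.25 and 0.90 ± 0.16 on the log2 scale (mean ± SD over 8 mice), and in all 8.

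Each ribosome is built from a small subunit, which reads the mRNA, and a large subunit, which joins amino acids, and nearly every ribosomal protein is present once in each ribosome. The stalk proteins Rplp0, Rplp1 and Rplp2 recruit elongation factors, of which Eef1a1 delivers charged tRNAs and Eef2 moves the ribosome along. Eef1b2 is part of the exchange factor that reactivates Eef1a1, and Rack1 is a scaffold on the small subunit. Tpt1 encodes the translationally controlled tumour protein, whose mRNA, like those of the ribosomal proteins, starts with a 5′ terminal oligopyrimidine (TOP) tract through which mTORC1 signalling controls its translation. In lymphocytes, quiescence is accompanied by a small cytoplasm and low protein synthesis, and activation by ribosome production.

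Sequences around the annotated starts are shown because that tract is the feature these mRNAs are best known to share. RefSeq promoter sequences (GRCm38.p6, 250 bases before to 50 bases after the start) were matched by symbol to 69 of the 98 members. The letters CTCTTTC, read on the sense strand within 50 bases of the start, occurred in 13 of the 69 (18.8%), against 1.62% of all 27025 genes with such a sequence and 1.64% of the 10222 genes of the matrix with one. The windows below run 5′ to 3′ on the gene's own strand, hold 30 bases each, and carry the matched letters in capitals. The first 5 are the members with this match that differed most between central memory and other cells, and the last 2 hold the related letters CTTTCC in a member that differed much and in one that hardly differed.
Rps26, chr10:128626483-128626512, minus strand: gccgccggatcCTCTTTCgagtcttggctc
Rps15a, chr7:118116142-118116171, minus strand: cccggcccactCTCTTTCtgccatcttccc
Rpl28, chr7:4792954-4792983, plus strand: ctctcgtgtctCTCTTTCcgtctccggccg
Rpl35, chr2:39005113-39005142, minus strand: cccgccctttcCTCTTTCtctcgaaccagg
Rack1, chr11:48800343-48800372, plus strand: ggcggaggccgCTCTTTCtttttctccaca
Rpl10a, chr17:28328575-28328604, plus strand: cgctctgccttCTTTCCggtttccgcggca
Rps27, chr3:90213629-90213658, minus strand: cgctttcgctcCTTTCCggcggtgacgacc

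In Rpl28 and Rpl35 the match begins at base 1 of the annotated transcript and in Rps26 at base 6, whereas in Rack1 and Rps15a it begins 6 and 13 bases before the annotated start. CTTTCC occurred in the same window in 21 of the 69 members (30.4%, against 5.43% of all genes), and 8 members held both. The strings overlap, since a run that continues CTCTTTC with a further C holds both. Over the whole 300 bases and on both strands, CTTCCGG, the core bound by ETS factors, was found in 26 members (37.7%, against 20.1% of the genes of the matrix and 9.93% of all genes). In the same bases TCTCGCGA was found in 11 (15.9%, against 2.44% and 1.13%), and AAGATGG, part of the YY1 motif, in 10 (14.5%, against 8.43% and 7.28%). Of the remaining strings searched in the same way, AAGATGGC, which holds AAGATGG, was found in 6 members (8.70%, against 5.25% and 3.19%). TATAAA was found in 8 (11.6%, against 9.06% and 15.7%) and GGGCGG in 41 (59.4%, against 66.5% and 38.2%). The 13 members with CTCTTTC differed between central memory and other cells by 0.20 to 0.55 (median 0.35) and the 56 without it by -0.05 to 0.59 (median 0.25), ranges that overlap over most of their length. The 56 include genes of low level, such as Rpl39l, Rpl7l1 and Rps19bp1, for which the log2 scale leaves little room for a difference. The medians thus also compare genes of unlike level. These matches describe the letters in the windows and do not show that a factor or a regulator acts there.

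Members were among the most abundant transcripts. Levels are given as the mean over the cells of a mouse of log2(corrected UMI count + 1), the corrected count being the authors' UMI count adjusted to a common depth. Ribosomal content was among the variables the authors regressed out, and whether the corrected counts also carry that step is not stated in the sources used here, so raw shares are given beside the log2 levels. Because 1 UMI stands for 1 transcript end, the levels were not divided by transcript length. Together the members took 21.1% to 26.4% of all corrected counts of a mouse, and 74 of the 98 were found in over 95% of cells. The highest was Eef1a1 with a level of 4.88 ± 0.10 (SD, n = 10 mice), or 29.9 corrected counts for each cell. It was followed by Tpt1 at 4.43 ± 0.12, Rps24 at 4.42 ± 0.11, Rps15a at 4.32 ± 0.10 and Rpl13 at 4.18 ± 0.09. Eef1a1 stood above the others by more than the spread between mice, whereas Tpt1, Rps24 and Rps15a lay within that spread of one another. The other elongation factors were lower, with Eef2 at 2.59 ± 0.16 and Eef1b2 at 2.13 ± 0.08, and Rack1 was at 2.22 ± 0.11. Within the stalk, Rplp1 was at 4.06 ± 0.10, Rplp0 at 3.83 ± 0.12 and Rplp2 at 3.14 ± 0.11.

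The paralogs were far below their parent genes. Rpl22l1 was at 1.63 ± 0.08 beside 2.70 ± 0.09 for Rpl22, and Rps27l at 0.51 ± 0.05 beside 3.87 ± 0.29 for Rps27. Rpl36al was at 0.47 ± 0.09 beside 2.27 ± 0.13 for Rpl36a, and Rpl7l1 at 0.29 ± 0.03 beside 2.73 ± 0.08 for Rpl7. Rpl39l, whose product is best known from the testis, was found in 0.229% of cells, beside 99.9% for Rpl39. The lowest levels besides Rpl39l belonged to the retrocopies Rps18.ps4, Rps18.ps5, Rps18.ps6 and Rpl7a.ps5, each in under 2% of cells in the mean over mice (0.217%, 0.457%, 1.21% and 1.53%). Retrocopies are near-identical to their parents, so reads of one may be counted for the other or dropped. The low level of Rpl13a (0.84 ± 0.18), which has many copies in the genome, is uncertain for the same reason. Rpl39l and the 3 Rps18 retrocopies did not pass the filter for testing. It asked that a gene be found in 1% of the cells or more in 5 or more mice and left 94 members among 9959 genes.

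Spread between mice was not even across the family. Of the 137 genes with a mean level above 2, an SD over mice above 0.2 was found for 9 of the 74 members and for 4 of the 63 other genes, and the median SD was 0.10 in both. Rps29 was at 3.0, 3.69, 4.0, 3.04 and 3.06 in WT mice 11, 12, 14, 23 and 36, and at 3.16, 4.13, 3.42, 4.25 and 3.0 in 564Igi mice 13, 17, 21, 24 and 34. Both conditions thus held mice near 3 and mice near 4. Rps28 followed with 2.66, 3.23, 3.36, 2.63 and 2.63 in the WT mice and 2.72, 3.58, 2.99, 3.57 and 2.57 in the 564Igi mice in the same order. Rpl38 read 2.78, 3.28, 3.46, 2.79 and 2.67 against 2.87, 3.66, 3.12, 3.65 and 2.67. In all 3 genes mice 12, 14, 17 and 24 lay above the mean of the 10 mice and mice 11, 23, 36, 13 and 34 below it. Among the 76 genes of the subunits and the stalk, the 10 with the largest SD over mice were, from the highest, Rps29 (0.50), Rps28, Rpl38, Rps27, Rps21, Rpl27, Rpl39, Rpl37, Rpl37a and Rpl41 (0.21). The highest SD among the remaining 66 was 0.19. Of these 10, 9 have an annotated coding length of at most 300 bases, and those are the 9 shortest of all 76. The exception is Rpl27 with 408 bases. Across the 76 genes the coding length and the SD had a Spearman correlation of -0.53, a description over genes that share their libraries. The length limit was chosen after the values were seen. The labels name no batch. The 4 higher mice were 1 female and 3 males, and their libraries are numbered 4, 1, 2 and 7 in the labels, whereas the 5 lower mice were 3 females and 2 males with libraries 3, 11, 36, 8 and 34. The median raw depth of the 4 was 2937.5, 3635, 4375.5 and 2728 UMIs, and that of the 5 was 3823.5, 3787, 3275, 3714.5 and 3447.5. The part of sex, library and depth in this spread was not tested.

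**Figure D1:**
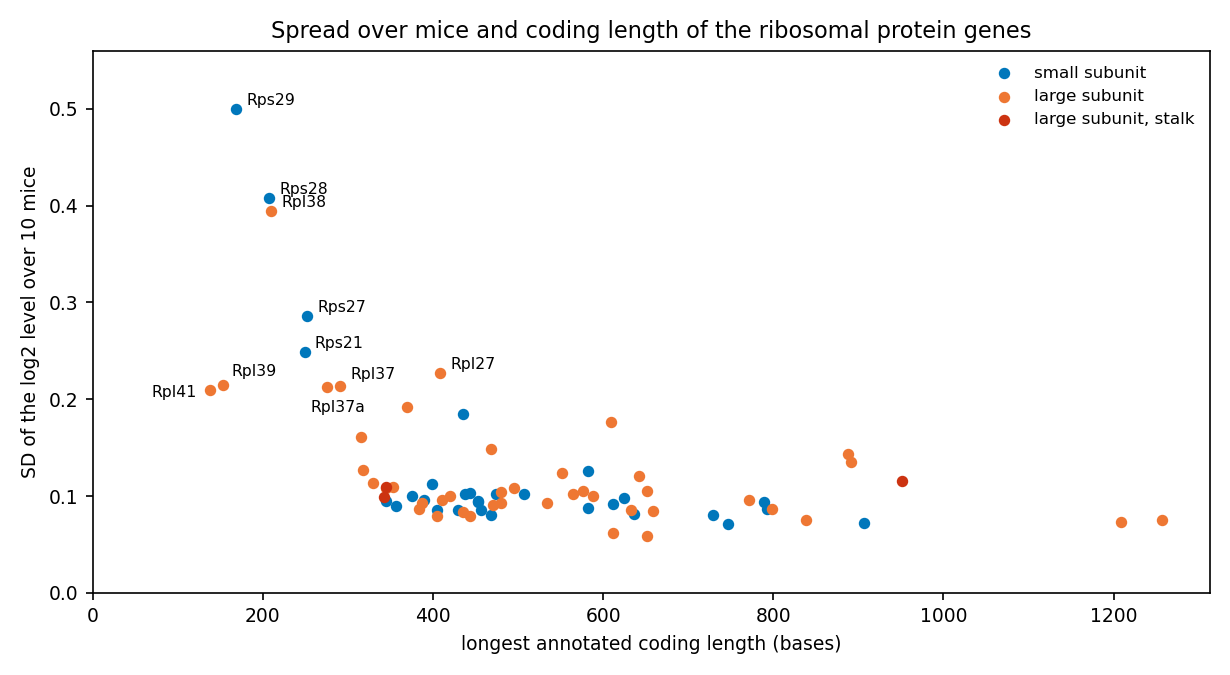
Each point is 1 of 76 ribosomal protein genes; the x axis gives the longest annotated coding length in bases and the y axis the SD of the gene's log2 level over 10 mice, and the 10 genes with the largest SD are named. The 9 genes of at most 300 bases have an SD of 0.21 to 0.50, whereas 66 of the 67 longer genes lie at 0.19 or below.

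The first comparison asked how the family differed between the clusters within each mouse. In central memory Tfh cells, which resemble recirculating, less differentiated T cells, most ribosomal proteins and 4 of the 5 added factors were higher than in the other cells of the same mouse. The raw data showed this before any normalization. Rps and Rpl genes took 26.02%, 28.03%, 26.49%, 26.59% and 26.69% of the UMIs of a central memory cell in WT mice 11, 12, 14, 23 and 36, and 27.30%, 26.52% and 28.55% in 564Igi mice 13, 17 and 24. In the other cells of these mice the mean was 21.8%. The central memory cells were higher by 5.26 ± 1.34 percentage points (SD, n = 8 mice, range 3.0 to 7.05), in every mouse. The rise was seen for both the small subunit (2.54 ± 0.61 points) and the large subunit (2.72 ± 0.74 points). Mice 21 and 34, with 19 and 13 central memory cells, were below the minimum of 20 cells and were left out. Every deposited cell had under 15% of its UMIs in Rps genes and under 20% in Rpl genes. Of the central memory cells 18.1% lay within 1 percentage point of either limit, against 3.62% of the other cells. Cells beyond these limits are not in the data. Central memory cells also had more UMIs, with a median of 4027 against 3531, and among cells of 3000 to 4500 UMIs the difference was 4.76 points.

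**Figure D2:**
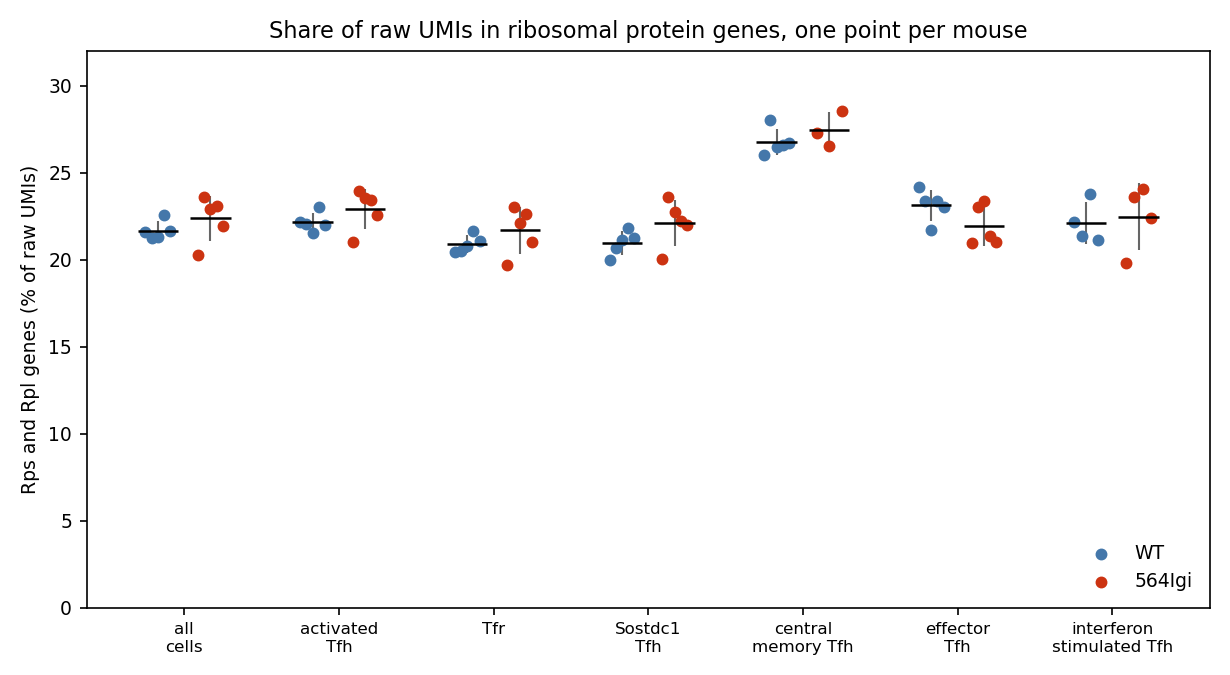
Each point is 1 mouse, in blue for WT and red for 564Igi; the y axis gives the mean percent of a cell's raw UMIs in Rps and Rpl genes, with the mean (bar) and SD (line) for each condition, over all cells and in each cluster with at least 20 cells. The central memory cells of all 8 mice lie between 26.0% and 28.6%, above every other cluster, and the conditions overlap in each cluster.

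For single genes, 64 of the 94 members were higher in central memory cells in all 8 mice with a mean difference above 0.2, against 2.18% of the 9959 genes. None was lower, against 2.47% of genes. The median difference was 0.29 over the members and 0.00 over all genes. On the scale of log2(count + 1) a gene of low level can hardly reach 0.2. Only 137 genes had a mean level above 2, and 74 of them were members. The shares over all genes thus set the members beside genes that are mostly of lower level. Because the clusters were drawn from the same cells and genes, these are descriptions and carry no test. Of the small subunit 25 of 30 genes were counted, of the large subunit with the stalk 35 of 46, and of the 5 added factors 4. Mitochondrial ribosomal proteins, which serve the separate ribosome of the organelle, did not share the pattern. Of these, 0 of 78 were higher by this rule, 1 was lower (Mrpl52, at -0.31 ± 0.14) and their median difference was 0.00. They too are of low level. As a fold of the mean corrected count, central memory over other cells, their median was 1.01, beside 1.24 over the members.

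The largest difference on the log2 scale belonged to Rplp0, the base of the stalk. Its level in central memory cells was 4.31, 4.36, 4.34, 4.23 and 4.43 in WT mice 11, 12, 14, 23 and 36 and 4.53, 4.44 and 4.34 in 564Igi mice 13, 17 and 24. In the other cells of these mice it was 3.72, 3.60, 3.74, 3.75 and 3.81, and 3.82, 3.94 and 3.89. The lowest central memory value thus exceeded the highest value of the other cells, and the difference within mice was 0.59 ± 0.11. Rps20, Rps26, Rpl10a and Rps4x, which belong to both subunits and are required in all cells, followed at 0.58 ± 0.14, 0.55 ± 0.12, 0.52 ± 0.13 and 0.50 ± 0.09. Such a separation of central memory from other cells across mice was seen for 41 of the 98 members, against 3.33% of the 9959 genes. Among the factors, Rack1 was higher by 0.44 ± 0.07, Eef1b2 by 0.43 ± 0.10, Eef1a1 by 0.41 ± 0.12 and Eef2 by 0.38 ± 0.12, each in 8 of 8 mice.

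Tpt1 stood apart from the other 4 factors. It ranged from 4.21 to 4.48 (median 4.37) in central memory cells and from 4.19 to 4.55 (median 4.40) in the other cells, with a difference of -0.05 ± 0.07 that was positive in 3 of 8 mice. The other stalk protein genes also diverged, since Rplp2 was higher by 0.22 ± 0.09 in all 8 mice and Rplp1 by 0.06 ± 0.10 in 6 of 8. Rps27 differed by 0.03 ± 0.09, in 5 of 8 mice upward, and the letters at its start, printed above, hold the same string as those of Rpl10a. Of the remaining lowest members, Rps27rt, a retrocopy of Rps27, differed by -0.01 ± 0.05 and Rps19bp1 by -0.02 ± 0.04. Both Rps18.ps4 and Rps18.ps5 were too rare to compare. None of the 4 paralogs that passed the filter was counted (0.01 to 0.05). Of their parents, Rpl22, Rpl36a and Rpl7 were higher by 0.29 ± 0.14, 0.40 ± 0.14 and 0.33 ± 0.08, whereas Rps27, the parent of Rps27l, hardly differed (0.03 ± 0.09). Rpl39, whose paralog Rpl39l did not pass the filter, was higher by 0.17 ± 0.12.

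**Figure D3:**
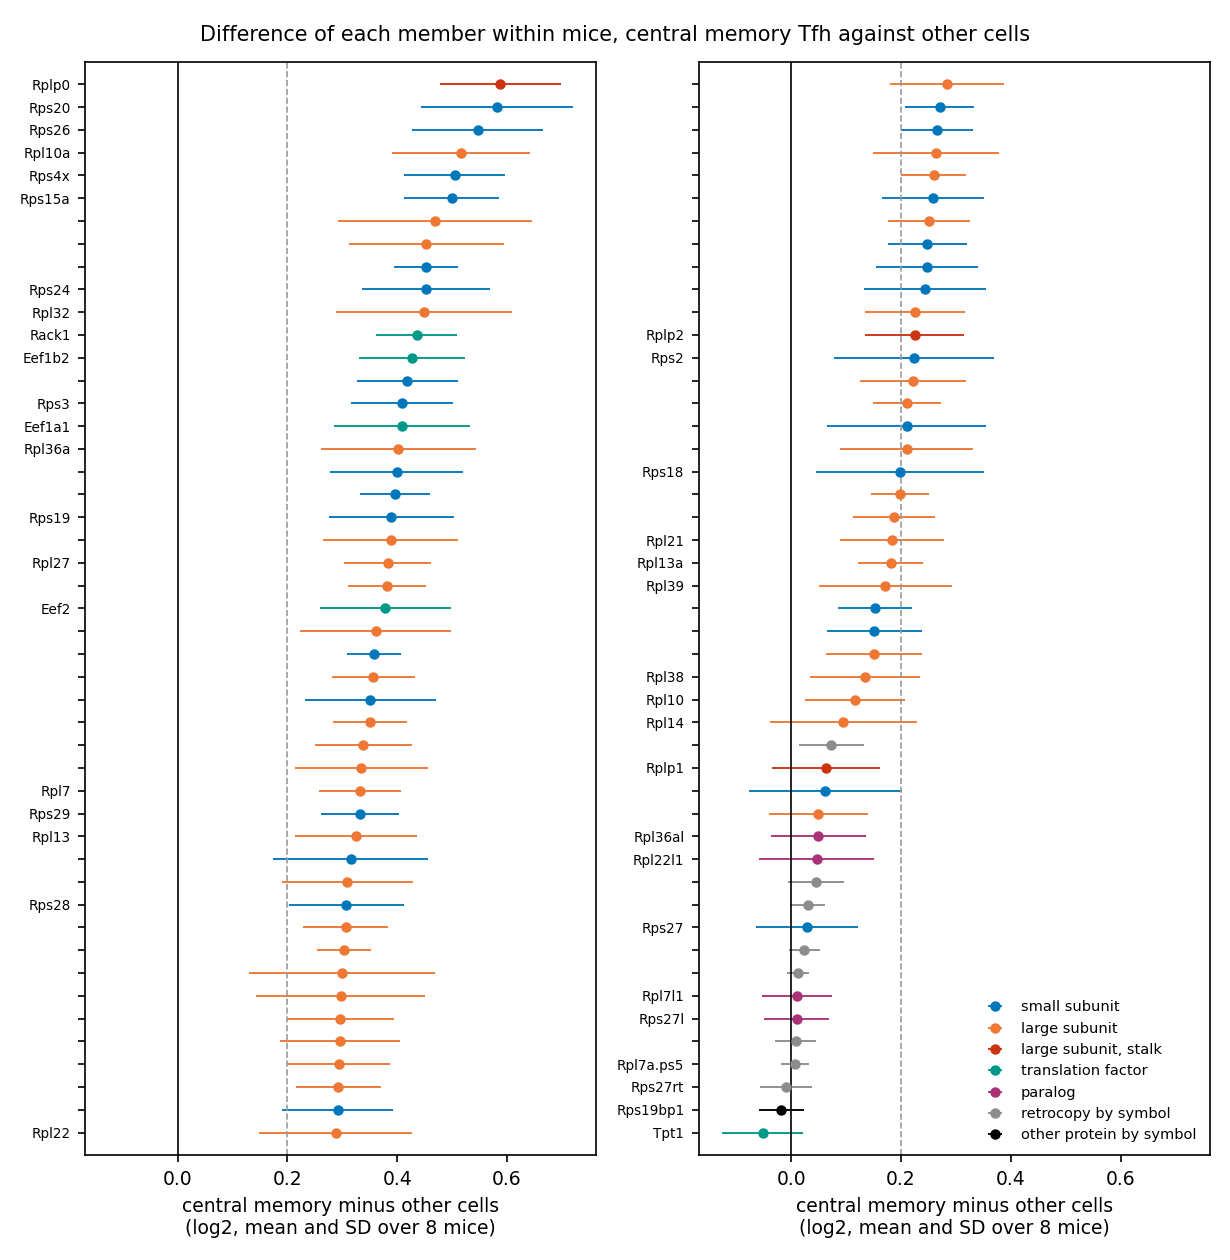
Each row is 1 of the 94 members that passed the filter, with the mean (point) and SD (line) over 8 mice of the log2 difference between the central memory cells and the other cells of the same mouse; colours give the class, names are given for members chosen by the naming rule, and the dashed line the limit of 0.2. Structural genes and elongation factors extend to 0.59 for Rplp0, while paralogs, retrocopies, Rps19bp1 and Tpt1 lie near 0; for the retrocopies, all of low level, this scale leaves little room for a difference.

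Other parts of the translation machinery were taken from lists chosen by function. Fewer of their genes passed the limit of 0.2, but on the scale of log2(count + 1) a gene of low level can hardly reach it, and many of these genes are low. Of ribosomal proteins with other symbols, Fau was at 0.15 ± 0.07 and Rpsa at 0.10 ± 0.12. Of 40 initiation factors 2 were counted as higher, namely Pabpc1, the poly(A) binding protein (0.36 ± 0.12), and Eif4g2 (0.31 ± 0.09). None was lower, and Eif3h was at 0.20 ± 0.17. Of 10 other elongation and release factors only Eef1g, a partner of Eef1b2, was counted (0.22 ± 0.11), with Eif5a at 0.16 ± 0.10 and Hbs1l at 0.11 ± 0.08. Of 42 ribosome biogenesis genes only Npm3 was counted (0.21 ± 0.09), with Npm1, a nucleolar chaperone, at 0.33 ± 0.17 in 7 of 8 mice and Ncl at 0.14 ± 0.11. The list of TOP regulators held 17 genes tested, among them the transcription factor genes Myc and Max, which do not themselves control translation. Of the 17 only Tia1, an RNA-binding protein, was counted (0.32 ± 0.11), with Cnbp at -0.13 ± 0.07 and Rps6kb1 at 0.08 ± 0.07. Of 11 nascent chain factors and other TOP mRNAs none was counted, Naca being at 0.15 ± 0.06, Hnrnpa1 at 0.13 ± 0.12 and Vim at -0.36 ± 0.20.

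As a fold of the mean corrected count, central memory over other cells, these lists did not lie uniformly below the family. The median fold was 1.24 over the 94 members and 1.04 over all genes. It was 1.26 over the ribosome biogenesis genes, 1.37 over the other elongation and release factors, 1.16 over the TOP regulators, 1.12 over the initiation factors, 1.09 over the nascent chain factors and other TOP mRNAs, and 1.01 over the mitochondrial ribosomal proteins. Npm3, a histone chaperone of the nucleolus, was at 0.635 counts for each central memory cell against 0.365 for other cells, a fold of 1.74. The biogenesis genes Nob1, Ppan and Nop56 had folds of 1.75, 1.70 and 1.69, beside 1.49 for Rplp0 and 1.5 for Rps20. Eef2k, the kinase that inhibits Eef2, was at 0.10 counts against 0.0169, higher in 8 of 8 mice. The transcription factor gene Myc, which stands on the list of TOP regulators but encodes no regulator of translation, was at 0.246 counts against 0.0946. This was a fold of 2.60, higher in 8 of 8 mice. Eif4ebp1, which encodes an inhibitor of cap-dependent initiation, was at 0.0543 against 0.119, a fold of 0.457, lower in 8 of 8. Among the members, the 8 retrocopies that passed the filter had a median fold of 1.52 at 0.0217 to 0.318 counts for each central memory cell, with Rpl10.ps3 at 1.58 in 8 of 8 mice and Rpl27.ps3 at 1.53 in 7 of 8. The 4 paralogs had folds of 1.03 to 1.08 and Tpt1 one of 0.961. Folds of such low counts are imprecise, and they were computed after the log2 differences had been seen.

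Genes of naive and recirculating T cells moved with the family. Of 10 such genes tested, 8 were counted as higher in central memory cells, among them the transcription factor genes Lef1 (0.76 ± 0.17) and Klf2 (0.64 ± 0.21), and 1, Il7r, as lower (-0.21 ± 0.11). The summed corrected count of all 12 listed genes was 8.45 to 10.8 for each central memory cell and 2.84 to 4.64 for each other cell, higher in 8 of 8 mice, with Tcf7 as the most abundant (a log2 level of 1.41 against 0.96). Their part in the result was not tested. Of the 3 markers of effector cells, the cytotoxic granule genes Nkg7 (0.89 ± 0.40) and Gzmk (0.38 ± 0.51) were also counted as higher in central memory cells, in 8 of 8 mice, whereas the chemokine gene Ccl5 was at 0.04 ± 0.15. By its mean count Ccl5 was lower, at 1.29 for each central memory cell against 3.04 (a fold of 0.423), although its log2 level was higher in 4 of 8 mice. Their part was not tested either. Markers of other lineages were lower or near 0 in the central memory cells. The 9 B cell genes in the matrix summed to 0.116 to 0.762 counts for each central memory cell against 0.881 to 2.04 for other cells, lower in 8 of 8 mice. Cd74 was the most abundant, and Ms4a1 and Pax5 were at 0. The 8 myeloid genes summed to 0.258 to 0.476 against 0.527 to 1.10, with Cst3 the most abundant and 5 at 0, among them Lyz2 and Csf1r. The 4 erythroid genes summed to at most 0.0345 in any mouse, led by Hbb.bs. The 4 CD8 and NK genes summed to 0.0316 to 0.114 against 0.0778 to 0.149, higher in 2 of 8 mice, led by Cd8b1, with Klrk1 at 0. Of 8 stress and RNA quality genes tested none was counted as higher by the limit of 0.2, and the early response genes Junb (-0.47 ± 0.17) and Jund (-0.35 ± 0.11) were counted as lower. As a fold of the mean corrected count, Fos was at 2.61 (0.192 counts for each central memory cell against 0.0737), higher in 7 of 8 mice, and Jun at 1.35, in 6 of 8. Their part in the result was not tested. Of 10 heat shock genes Hspe1 was counted as higher (0.28 ± 0.10) and Hspa5 as lower (-0.40 ± 0.18), with Hspa8 at 0.14 ± 0.18.

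The remaining clusters differed by far smaller steps. Activated Tfh cells had a higher raw share than Tfr cells in all 10 mice, by 1.23 ± 0.35 percentage points (range 0.73 to 1.72). Against the other cells of their mouse, activated cells differed by 0.87 ± 0.29 points, upward in 10 of 10 mice, and Tfr cells by -1.25 ± 0.39 points, downward in 10 of 10. On the log2 scale the mean over the 98 members differed by 0.04 ± 0.02 in activated cells and by -0.06 ± 0.02 in Tfr cells, again in the same direction in all 10 mice. No single member passed 0.2 in either cluster on this scale. The background was 0.351% of genes higher and 0.442% lower in activated cells, and 0.713% higher and 0.502% lower in Tfr cells. Rpl13a, one of the uncertain genes, led in both, at 0.14 ± 0.04 in activated and -0.19 ± 0.02 in Tfr cells, and Rplp0 was at -0.16 ± 0.04 in Tfr cells. Of the 94 members 83 had a lower mean in Tfr cells and 11 a higher one. Among the 11, Rpl39 was higher by 0.12 ± 0.07 in 10 of 10 mice, Rps19 by 0.10 ± 0.07 in 9 of 10, Rps27l by 0.04 ± 0.02 in 10 of 10 and Rpl7a by 0.04 ± 0.03 in 9 of 10. In activated cells Rpl39 was at -0.08 ± 0.06, lower in 10 of 10 mice, and Rps15a at -0.06 ± 0.04, lower in 9 of 10.

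Sostdc1 Tfh cells, named for a secreted antagonist of BMP and WNT signalling, had a mean difference of -0.02 ± 0.03 over members and were lower in 8 of 10 mice. After the summed counts of a mouse's cells were scaled to 10000 the mean difference was -0.047. Only Rps19 was counted there, at -0.21 ± 0.06 in 10 of 10 mice. Thus 1 of 94 members was lower, against 0.291% of genes, and none was higher against 0.572%. Rpl32 was at -0.13 ± 0.06, and Rpl14 at 0.09 ± 0.06. Effector cells, which carry the cytotoxic granule and chemokine genes Nkg7, Gzmk and Ccl5, were uneven between mice, with a mean over members of 0.02 ± 0.06 that was positive in 7 of 10. It was 0.13, 0.09, 0.02, 0.04 and 0.07 in WT mice 11, 12, 14, 23 and 36, and 0.02, -0.03, 0.01, -0.08 and -0.05 in 564Igi mice 13, 17, 21, 24 and 34, so the 3 negative values all belonged to 564Igi mice. One member was counted as higher, Rpl13a at 0.24 ± 0.12, against 0.914% of genes, and 1 as lower, Rps2 at -0.21 ± 0.11, against 1.34%. Rpl27 had the largest mean there, 0.26 ± 0.13, but was lower in 1 of 10 mice, and Rps19 was at -0.16 ± 0.10. In interferon stimulated cells (8 mice, since mice 12 and 24 had 14 and 17 of them) no member was counted, against 1.71% of genes higher and 0.281% lower. The extremes were Rps18 (0.10 ± 0.08), Rps3 (0.09 ± 0.08), Rpl14 (-0.10 ± 0.09) and Rpl10 (-0.09 ± 0.09).

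The second comparison asked whether the family differed between autoreactive and immunized chimeras. The raw share of Rps and Rpl genes over all cells was 21.57%, 21.24%, 21.31%, 22.58% and 21.64% in WT mice 11, 12, 14, 23 and 36, and 20.29%, 23.61%, 22.92%, 23.08% and 21.91% in 564Igi mice 13, 17, 21, 24 and 34. The 564Igi mice spanned a wider range that held all WT values, and the means, 21.7% ± 0.54 and 22.4% ± 1.31, differed by 0.69 points, less than the spread between the 564Igi mice. The difference was 1.21 points without 564Igi mouse 13 and 0.383 without 564Igi mouse 17. Within clusters the difference of the means lay between 0.383 and 1.14 points, except in effector cells, where it was -1.18 points (23.1% ± 0.90 in WT and 21.9% ± 1.16 in 564Igi mice, which overlapped). Whether effector cells differ in this from other clusters was not tested. On the log2 scale 91 of the 94 members had a higher mean in 564Igi mice, with a median difference of 0.10 beside -0.00 over all genes. The members were measured in the same mice and libraries, so that count is not 91 separate observations. When counts were scaled to 10000 in each mouse the median difference of the members was 0.06 and that of all genes -0.01. The normalization had been run on each condition separately, and the mean corrected count for each cell was 3529 ± 113 in WT and 3632 ± 163 in 564Igi mice.

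No member was called over all cells by limma at an adjusted p below 0.01 and a difference above 0.2, and 1 of the 9959 genes was (0.01%). At an unadjusted p below 0.05 there were 10 members among 318 genes (3.19% of genes), and limma without a variance trend called no gene. Without a limit on the difference and at an adjusted p below 0.05, Tpt1 was 1 of 7 genes (0.0703%). The level of Tpt1 was 4.36, 4.19, 4.28, 4.42 and 4.38 in WT mice 11, 12, 14, 23 and 36 and 4.54, 4.54, 4.56, 4.49 and 4.51 in 564Igi mice 13, 17, 21, 24 and 34. Every 564Igi mouse was above every WT mouse, with a difference of 0.20 ± 0.04 (SE; limma adjusted p = 0.0349). That adjusted p was above 0.05 without a variance trend (0.596), with no filter on low genes (0.252), in cells of 3000 to 4500 UMIs (0.215), and when any of WT mice 11 or 12 or 564Igi mice 13, 17, 21 or 24 was left out (0.0531 to 0.299), with a difference of 0.17 to 0.21. Mice of the conditions did not overlap for 5 members, against 0.452% of genes. These were Tpt1, Rpl10 (0.20 ± 0.07 SE), Eef1a1 (0.14), Rpl7a (0.13) and Rps2 (0.11), all higher in 564Igi mice. After scaling to 10000 the non-overlap held for Tpt1 alone, with a difference of 0.16 (limma adjusted p = 0.652).

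Mean differences of similar size to that of Rpl10 were found in genes with a wide spread in both conditions. Rps29, Rpl38 and Rps28, the 3 members with the largest SD over mice, differed by 0.23 ± 0.21, 0.20 ± 0.17 and 0.18 ± 0.18 (SE), within the spread between mice of either condition, with an adjusted p of 0.9997 each in limma. At the other end, of the members tested only Rps27rt (-0.03 ± 0.04), Rps19bp1 (-0.00 ± 0.01) and Rpl7a.ps5 had a lower mean in 564Igi mice, and the mice of the conditions overlapped for each. The untested Rpl39l and Rps18.ps4 had means of 0.0038 and 0.0019 in WT and 0.0015 and 0.0024 in 564Igi mice. The other factors had differences of 0.18 ± 0.10 for Eef2 (limma adjusted p = 0.9997) and 0.14 for Eef1a1. None of the genes on the lists of initiation factors, other elongation factors, biogenesis genes, TOP regulators or mitochondrial ribosomal proteins was called, and the medians of those lists lay between -0.00 and 0.01. The median was 0.11 over the 3 ribosomal proteins with other symbols and 0.02 over the nascent chain factors and other TOP mRNAs, again with no gene called.

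**Figure D4:**
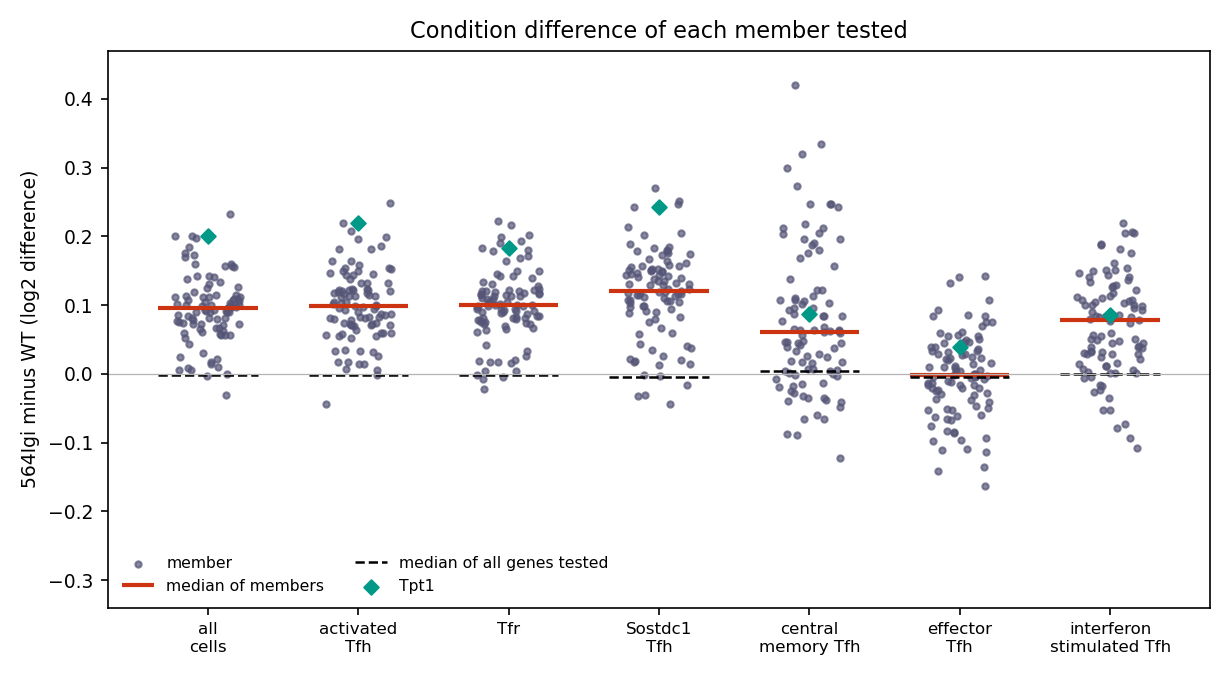
Each dot is 1 member tested; the y axis gives the log2 difference 564Igi minus WT over all cells and in each cluster, with the median of the members (red), the median of all genes tested (dashed) and Tpt1 (diamond). The members' median lies at 0.10 over all cells and at -0.00 in effector cells, and Tpt1 is at 0.24 in Sostdc1 cells.

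Within clusters, Tpt1 was the only member called, and in Sostdc1 Tfh cells only. There it was at 4.25, 4.21, 4.30, 4.36 and 4.38 in WT mice 11, 12, 14, 23 and 36 and at 4.54, 4.54, 4.59, 4.51 and 4.53 in 564Igi mice 13, 17, 21, 24 and 34, again without overlap, a difference of 0.24 ± 0.04 (SE; limma adjusted p = 0.00345). It was 1 of 2 genes called among 9885 (0.0202%). The call was lost without a variance trend (adjusted p = 0.0964), with no filter on low genes (0.0554), after scaling to 10000 (0.468), in cells of 3000 to 4500 UMIs (0.0262), and when any of WT mice 11, 12 or 14 or 564Igi mice 17, 21 or 24 was left out (0.01 to 0.0225). The difference under these settings stayed between 0.22 and 0.25. In the other clusters Tpt1 differed by 0.22 ± 0.04 in activated cells (limma adjusted p = 0.0401) and by 0.18 ± 0.04 in Tfr cells (0.0733). After scaling to 10000 these were 0.17 (limma adjusted p = 0.685), with mice of the conditions overlapping, and 0.14 (0.672), without overlap. It differed by 0.09 ± 0.06 in central memory cells (0.798), by 0.04 ± 0.05 in effector cells (0.973) and by 0.09 ± 0.07 in interferon stimulated cells (0.998). Eef1a1 in Sostdc1 cells differed by 0.18 ± 0.03 (limma adjusted p = 0.0457), which met neither limit of a call.

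**Figure D5:**
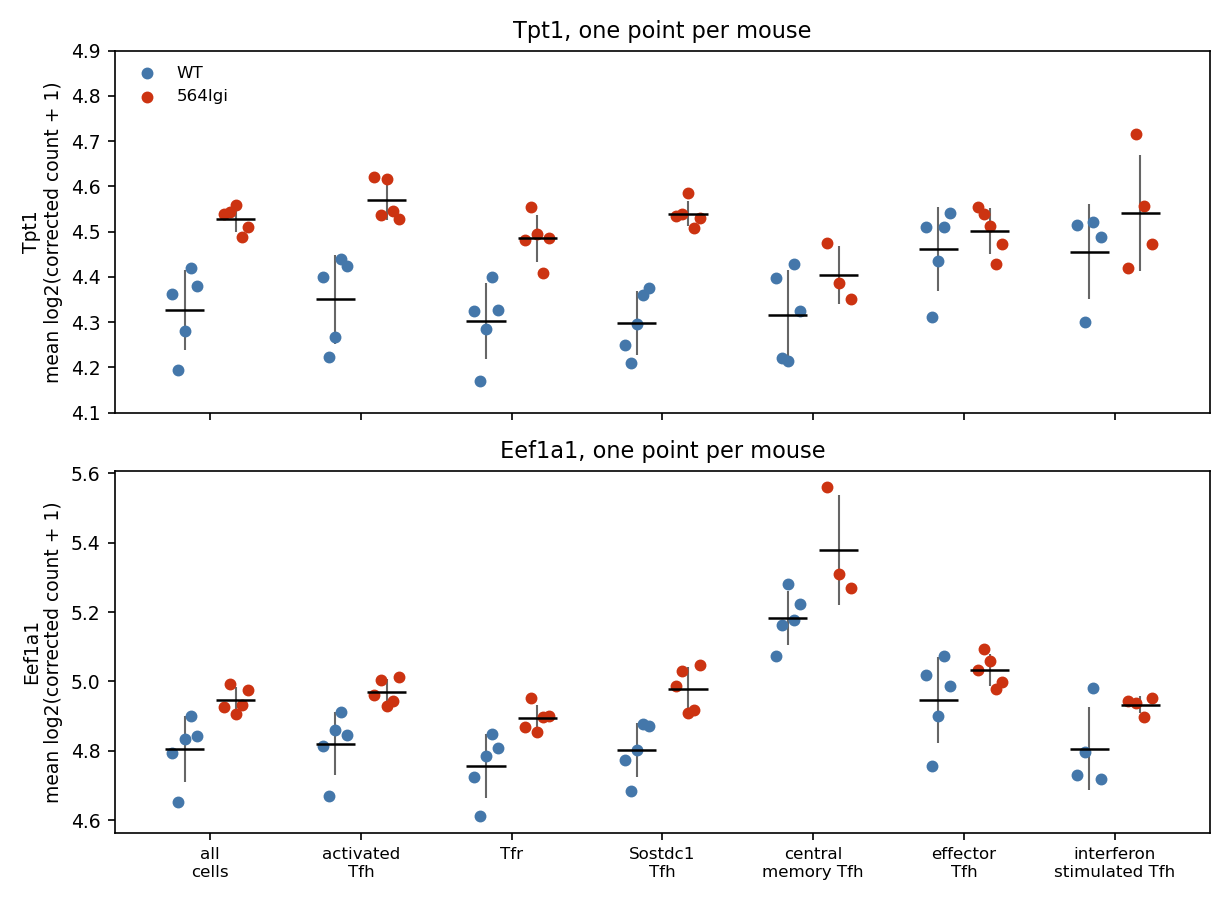
Each point is 1 mouse, in blue for WT and red for 564Igi, over all cells and in each cluster with at least 20 cells of that mouse; the y axes give the mean log2(corrected count + 1) of Tpt1 (top) and Eef1a1 (bottom), start above 0, and show the mean (bar) and SD (line) of each condition. Tpt1 does not overlap between conditions over all cells and in the activated, Tfr and Sostdc1 clusters on this scale (after scaling to 10000 it overlaps in activated cells), and Eef1a1 is highest in central memory cells.

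Elsewhere no member was called by limma. The genes called were 1 of 9859 in activated cells (0.0101%), 2 of 9994 in Tfr cells (0.02%), 1 of 9637 in effector cells (0.0104%), 1 of 9419 in interferon stimulated cells (0.0106%) and none of 10351 in central memory cells (0%). At an unadjusted p below 0.05 there were 12, 14, 1, 5 and 5 members in these clusters in the same order, beside 3.99%, 3.50%, 5.22%, 4.20% and 7.57% of genes. In Sostdc1 cells, where Tpt1 was called, there were 21 of 95 members, beside 4.60% of genes. The median difference of the members was 0.10 in activated cells, 0.10 in Tfr cells, 0.12 in Sostdc1 cells, 0.08 in interferon stimulated cells, 0.06 in central memory cells and -0.00 in effector cells. For the central memory cells it fell to 0.00 after scaling to 10000, where 50.5% of members were above 0 in place of 76.8%. In interferon stimulated cells the same scaling moved that share from 86.3% to 73.7%. The comparison in central memory cells rests on 5 WT and 3 564Igi mice.

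Whether the rise of the family in central memory cells itself differed between conditions was tested as a difference of differences over the same 5 WT and 3 564Igi mice. The mean over members was 0.25, 0.33, 0.25, 0.21 and 0.26 in WT mice 11, 12, 14, 23 and 36 and 0.34, 0.15 and 0.23 in 564Igi mice 13, 17 and 24, so the WT values lay inside the range of the 564Igi mice. Of 95 members tested, 0 were called by limma, and 0 of 10351 genes were (0%), with 7 members at an unadjusted p below 0.05 beside 9.21% of genes. Tpt1 had the difference -0.01 in WT and -0.12 in 564Igi mice (limma adjusted p = 0.428).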

How the data were processed

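Single-cell RNA libraries of 10 mice were used; the paired T cell receptor libraries were not. Per the labels and the study's methods, the authors aligned reads with Cell Ranger 4.0.0 to GRCm38 (mm10) and used Seurat 3.1.4 to exclude cells by gene and UMI number, by mitochondrial or ribosomal share and by cycling scores, and ran sctransform on WT and 564Igi cells separately, with ribosomal content, UMIs and the heat shock score among the variables regressed out. The deposited matrix holds the natural log of (corrected UMI count + 1), and undoing the log gave whole numbers (tolerance 1e-06). The deposited cell table gives raw UMI counts, the percent of UMIs in Rps and Rpl genes before normalization, a heat shock score from the authors and their cluster names. The methods state 1 limit of 20% on ribosomal content, whereas the Rps and Rpl percents of the deposited cells sum to over 20% in 64.1% of them. No doublet caller was run here, and receptor genes were removed by the authors.

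The mean of log2(corrected count + 1) was taken for each mouse, or for its cells of a cluster where there were at least 20. Conditions were compared with limma 3.58.1 (R 4.3.3; variance trend, genes found in 1% of the cells or more in a number of mice equal to the smaller group, Benjamini-Hochberg adjustment over all genes tested); a gene was called at an adjusted p below 0.01 and a difference above 0.2. No count model was used because the matrix analysed holds corrected counts. Replicates were separate mice. Clusters were compared within mice without a test. Folds of mean corrected counts were added after the values had been seen. The code was tested on simulated data. Alternatives were another variance prior, filter, pseudocount, scaling and depth, the labelled sex or heat shock score as a covariate, 50 cells in place of 20, activated cells as the reference, and leaving out mice. Named were members called, those with the largest differences or the highest and lowest levels, the added factors, the stalk and the paralogs with their parents; from lists, the genes counted or with the largest central memory difference; Rps21, Rpl37, Rpl37a, Rpl41, Rpl7a and further genes beside them were named after their values were seen. A few results that the naming rule would include are not reported here. Members and lists were chosen with earlier results of these data known. Coordinates of sequences and coding lengths come from RefSeq (GRCm38.p6) and GENCODE vM21, respectively.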

Additional observations from a re-analysis of the deposited data

Results flagged for a closer look

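In 8 of 101 groups of 4 or 5 mice tested, 1 mouse lay far from the others of its condition by Dixon's criterion on the range; chance alone marks about 1 in 20 groups. All values are log2 levels over all cells. WT mouse 14 was the lowest of its condition for Rps15a (4.131, others 4.306 to 4.371), Rps19 (2.969, others 3.14 to 3.203) and Rps18 (2.737, others 2.867 to 2.888), 3 genes of the small subunit. The 564Igi mouse 13 was lowest for Rpl32 (3.47, others 3.616 to 3.649). The 564Igi mouse 24 was lowest for the paralog Rpl7l1 (0.23, others 0.2973 to 0.3204). The other 3 concern genes that are among the lowest members in level: Rpl39l in 564Igi mouse 17 (0.006503, others 0 to 0.0008285), and the retrocopy Rps18.ps6 in WT mouse 36 (0.02471, others 0.006349 to 0.01111) and in 564Igi mouse 34 (0.03862, others 0.001784 to 0.01185).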

How the results depend on the processing

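The rise of the family in central memory cells kept its direction under every alternative run: the mean difference over members lay between 0.215 and 0.273, the number of members counted between 54 and 68, and the difference in the raw share between 4.76 and 5.58 points. The mean over members in Sostdc1 cells moved to -0.047 after scaling to 10000. In interferon stimulated cells that mean was on either side of 0 (-0.014 to 0.015).

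Between conditions, counts of calls were small and changed with the settings. Without a variance trend, 0 genes were called in all cells and in activated, Tfr, Sostdc1, effector and interferon stimulated cells, and 0 members in Sostdc1 cells. With no filter on low genes, 0 genes were called in activated and Tfr cells, and 1 gene and 0 members in Sostdc1 cells. At an adjusted p below 0.05 with no limit on the difference, the genes called were 7 in all cells, 4 in activated, 9 in Tfr, 4 in Sostdc1, 3 in central memory and 6 in effector cells, with 1 member in all cells, 1 in activated and 2 in Sostdc1 cells. After scaling to 10000, 2 genes were called in each of all cells, central memory and effector cells, and 0 members in Sostdc1 cells. In cells of 3000 to 4500 UMIs, 1 gene was called in Tfr and 3 in effector cells, and 0 members in Sostdc1 cells. With sex as a covariate 2 genes were called in central memory cells, with the heat shock score 2 in effector cells, with at least 50 cells for each mouse 3 in effector cells, and without mice 34 and 36, whose library numbers stand apart, 6 in effector and 2 in interferon stimulated cells. The cause of these changes was not tested.

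When each mouse was left out in turn, the genes called ranged from 1 to 2 in all cells, from 1 to 3 in activated, Tfr, Sostdc1, effector and interferon stimulated cells, and from 0 to 9 in central memory cells, the 9 arising without 564Igi mouse 24, which leaves 2 mice of that condition. The members called ranged from 0 to 1 in all cells and in Sostdc1 cells. Tpt1 over all cells was called only without WT mouse 23 (0.22, limma adjusted p = 0.00792). Of the values for single members, 1519 kept their direction and side of the threshold, 10 lost a call, all of them Tpt1 in Sostdc1 cells, 1 gained one and 3 moved by more than the spread between mice. No called result changed sign. No paired analysis was possible because the mice of the conditions share no replicate number. Means over the fewer than 50 cells of the smallest cluster and mouse combinations are the least precise.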
